A study of Homo sapiens with 17 samples.

Results

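RRM1, RRM2, RRM2B, TYMS, TK1, DUT, CAD, IMPDH2 and PPAT are 9 enzymes or enzyme subunits that build the nucleotides from which DNA and RNA are made. They were taken by gene symbol from a table of 9699 genes, and all 9 were present, each with 1 Ensembl transcript. For each gene the table gave an RNA level from RNA-Seq of poly(A) RNA and a ribosome footprint level from Ribo-Seq, in which ribosomes are held on the mRNA with cycloheximide, the unprotected RNA is digested with RNase I and the protected fragments are sequenced. Both were in FPKM, reads scaled to feature length and to sequencing depth, over the whole transcript for RNA-Seq and over the coding sequence for Ribo-Seq, and translation efficiency (TE) was the log2 of the Ribo-Seq level minus the log2 of the RNA level.

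All samples were BJ cells, human foreskin fibroblasts immortalized with hTERT, in 5 states. Proliferating cells grew in serum, and quiescent cells had been deprived of it. Pre-senescent cells had received 4-OHT-tamoxifen for 5 days and senescent cells for 14 days, which switches on a tamoxifen-inducible RASG12V transgene, a constitutively active form of RAS. The cells labelled transformed are described as carrying constitutive RASG12V together with hTERT, a p16INK4A knockdown, a p53 knockdown and SV40 small T. The labels do not say whether the proliferating and quiescent cells carried the inducible transgene. The 17 libraries, 9 of RNA-Seq and 8 of Ribo-Seq, were reduced in the table to 6 columns per assay, and 5 of the 12 columns combined 2 libraries. Proliferation was measured in each of 2 sequencing runs. Quiescence and pre-senescence belonged to run 1, senescence and transformation to run 2, and every state below is set against the proliferation column of its own run.

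DNA replication needs a balanced supply of the 4 deoxynucleotides, and cells make most of it at the start of and during S phase. Ribonucleotide reductase removes an oxygen from the ribose of ribonucleotides; its large subunit is RRM1, and its small subunit is either RRM2, made in cycling cells, or RRM2B, a p53 target known for deoxynucleotide supply in non-dividing or damaged cells. TYMS methylates dUMP to dTMP, TK1 makes dTMP from thymidine, and DUT removes dUTP so that uracil stays out of DNA, while CAD, PPAT and IMPDH2 act further upstream, in the de novo synthesis of pyrimidine and purine ribonucleotides that resting cells also use. Because these were bulk samples, fewer cells in S phase and less RNA per cell cannot be told apart in any value below.

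No state had replicate columns within a run, and a fit that keeps run leaves no residual degree of freedom. A fit that ignores run was not made, and no p-value is given. A gene was called lower or higher when its level differed by 2-fold or more, a log2 change of at least 1.0 in size. The only repeated state was proliferation, and its difference between runs is the only measure of spread here. The between-run SD of a single column, pooled over the 9 genes, was 0.51 on the log2 scale for the RNA level. It was 0.55 for the Ribo-Seq level and 0.15 for TE (n = 2 runs). This SD includes the batch effect between runs that the paper describes, while each change was taken within a run. A change is also a difference of 2 columns, and the 9 genes are not replicates, so the SD is only a rough guide. The table gave no read counts per gene. The paper lists reads per library, but the number of reads behind each value was not worked out here. FPKM below 1 had been raised to 1, which touched between 2.56% and 5.26% of the rows in an RNA-Seq column and between 2.74% and 5.73% in a Ribo-Seq column, and no value of the 9 genes.

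The labels were checked against known genes. All 7 fibroblast markers were in the table, but 5 of them were 2-fold lower in RNA in senescence (median log2 change of -1.60, COL1A1 -4.69), and 3 were 2-fold higher in run 2 proliferation than in run 1 (median 0.96), and their part in the values below was not tested. EPCAM, CDH1 and PTPRC, which mark epithelial and blood cells, were not in the table. KRT8 and KRT18 were present, between 4.84 and 257.47 FPKM of RNA. MKI67, a marker of cycling cells, was at 43.97 FPKM of RNA in run 2 proliferation and at the limit of 1 in senescence, and CDKN1A, the p53 target that stops the cycle, was at 171.63 and 814.41. HRAS was already at 2415.3 and 1283.5 FPKM in the 2 proliferation columns, against 311.51 in transformed cells, so it does not mark the induced states here and is lower, not higher, in the column labelled transformed. CDKN2A, the gene of p16INK4A, was at 6.75 FPKM of RNA in run 2 proliferation and 12.64 in transformed cells, and at 8.92 and 5.51 in Ribo-Seq; its RNA goes against the knockdown label, by less than the 17.19 and 6.75 FPKM of the proliferation columns differed. For 2 Ribo-Seq libraries, senescence and run 2 proliferation, the title and the condition label contradicted each other. The titles and the table's column names were followed. Across all 9699 rows the RNA and Ribo-Seq changes in senescence then correlated with r = 0.83 (genes within a sample, not replicates). Exchanging those columns reverses the sign of every Ribo-Seq change, so r = -0.83 then follows by construction and is not a second result.

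The promoters of genes that shared the senescence pattern described below are shown for 3 short letter motifs found in genes of the cell cycle and of growth. A RefSeq table (GRCh38.p14) gave the 250 bases before and 50 bases after the start site for 7 of the 9 genes, in 12 entries. A gene is named when any of its entries held the motif, while each share is over single entries. Sequences run 5′ to 3′ on the gene's strand, and capitals mark the motif. The motif of E2F, the factor family of the G1 to S transition, was searched as TTTCCCGC, TTTCGCGC, TTTGCCGC or TTTGGCGC on both strands. It was present in 3.31% of 35116 promoters, and among the 7 genes in DUT, where a match on each strand lay within 1 window, and in TYMS:
DUT, chr15:48332152-48332181, plus strand: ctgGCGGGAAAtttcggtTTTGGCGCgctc
TYMS, chr18:657603-657632, plus strand: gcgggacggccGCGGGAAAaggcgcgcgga

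The CCAAT box, searched as CCAAT on both strands, was present in 34.6% of promoters, and in those of RRM2, RRM1, TK1 and CAD. Counted by entry, it was in 5 of the 12 of these 7 genes. RRM2 held 3 copies in 1 promoter, and the windows around them shared a run of 15 bases, agCCAATgggaaggg. Those copies and the matches of RRM1 and TK1 are shown, with distance counted from the start site:
RRM2, farthest copy, chr2:10122604-10122633, plus strand: ggcaaggcgcagCCAATgggaagggtcgga
RRM2, middle copy, chr2:10122634-10122663, plus strand: ggcatggcacagCCAATgggaagggccggg
RRM2, nearest copy, chr2:10122661-10122690, plus strand: ggggcaccaaagCCAATgggaagggccggg
RRM1, chr11:4094645-4094674, plus strand: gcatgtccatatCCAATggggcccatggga
TK1, farther copy, chr17:78187112-78187141, minus strand: ggccgggcgctgATTGGccccatggcggcg
TK1, nearer copy, chr17:78187081-78187110, minus strand: ggccggctcgtgATTGGccagcacgccgtg

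The E-box CACGTG, the letters bound by MYC and related factors, was present in 7.26% of promoters and among the 7 genes in PPAT alone, which is shown because its levels stayed within 2-fold in every state:
PPAT, chr4:56435780-56435809, minus strand: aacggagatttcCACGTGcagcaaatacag
A match is a run of letters in these windows and says nothing of whether a factor was bound in these cells.

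In senescence 5 of the 9 genes, RRM1, RRM2, TYMS, TK1 and DUT, were at least 2-fold lower in RNA, and RRM2B was the 1 gene that was higher. Of all rows 13% were lower and 7.08% higher by that fold. The Ribo-Seq level gave the same 5 lower and the same 1 higher, where 16.6% and 11% of all rows were. CAD, IMPDH2 and PPAT were lower by less than 2-fold in both assays. The median log2 change of the 9 genes was -1.37 in RNA and -1.92 in Ribo-Seq, against -0.00 and -0.10 over all rows. Compared with both proliferation columns, 8 genes lay below them in senescence and RRM2B above, in RNA and in Ribo-Seq alike. The share of all rows outside both columns was not worked out, here or for quiescence below. Against run 1 proliferation, CAD and IMPDH2 were also past 2-fold, so that 7 genes were lower and 1 higher in each assay. For this and the later counts against the other run's control, the share of all rows is not given, so these counts have no background. With a call scaled to the SD of rows of like level, DUT lost its call in RNA and RRM2B its call in Ribo-Seq. That rule called 6.75% of all rows in RNA and 7.19% in Ribo-Seq.

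RRM2, the small subunit of cycling cells, showed the widest range of the 9 genes. Its RNA was at 106.12 FPKM in run 1 proliferation, 42.91 in quiescence and 59.26 in pre-senescence, and at 75.93 in run 2 proliferation, 1.36 in senescence and 47.3 in transformed cells. The senescent column stood alone, with all other columns at 42.91 FPKM or more. The Ribo-Seq level ran from 405.38 FPKM in run 1 proliferation and 249.05 in run 2 to 163.87 in quiescence, 171.84 in pre-senescence, 163.2 in transformed cells and 3.35 in senescence. Against its own run, senescence was 55.8-fold lower in RNA and 74.3-fold lower in Ribo-Seq. Of the 9699 rows, 1 had a lower RNA change and none a lower Ribo-Seq change. The limit of 1 FPKM bears on this rank, since a row low in proliferation cannot fall as far. The median row of run 2 proliferation was at 13.06 FPKM in RNA and 16.23 in Ribo-Seq. The senescent values are close to the limit of 1 FPKM, and the number of reads behind them was not worked out.

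RRM1, the catalytic subunit shared by both forms of the enzyme, was lower in senescence by much less than RRM2. Its RNA was at 92.52 FPKM in run 1 proliferation, 53.44 in quiescence, 82.01 in pre-senescence, 70.57 in run 2 proliferation, 11.55 in senescence and 67.3 in transformed cells. Senescence was 6.11-fold lower than proliferation in RNA and 4.65-fold lower in Ribo-Seq, at 23.75 against 110.55 FPKM. Transformed cells were close to proliferation, with log2 changes of -0.07 in RNA and 0.30 in Ribo-Seq, both within the between-run SD.

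RRM2B, the p53-inducible small subunit, went the other way. Its RNA was at 7.2 FPKM in run 1 proliferation, 11.08 in quiescence, 10.79 in pre-senescence, 12.22 in run 2 proliferation, 37.81 in senescence and 7.71 in transformed cells. The senescent value was 3.09-fold that of run 2 proliferation, and 1.9% of rows had a higher change. In Ribo-Seq it was 2.82-fold higher, 72.94 against 25.91 FPKM, where 4.65% of rows had a higher change. The 2 proliferation columns differed by 0.76 on the log2 scale in RNA, run 2 being the higher, so the higher RNA of run 1 quiescence and pre-senescence (log2 changes of 0.62 and 0.58) was no larger than the difference between runs.

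The order of the small subunits was reversed in senescence. The RNA level of RRM2, per length of transcript, was 14.7 times that of RRM2B in run 1 proliferation and 6.21 times in run 2, and between 3.87 and 6.13 times in quiescence, pre-senescence and transformed cells. In senescence RRM2B was 27.8 times RRM2 in RNA and 21.8 times in Ribo-Seq. The summed RNA of both small subunits was 1.22 and 1.25 times that of RRM1 in the 2 proliferation columns and 3.39 times in senescence. In Ribo-Seq the same ratio was 3.01 and 2.49 in proliferation and 3.21 in senescence.

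The enzymes of dTMP supply followed RRM2. TK1, the cytosolic thymidine kinase, had RNA levels of 135.84 FPKM in run 1 proliferation, 69.52 in quiescence, 72.27 in pre-senescence, 72.26 in run 2 proliferation, 2.24 in senescence and 74.71 in transformed cells. Senescence was 32.3-fold lower in RNA and 47.4-fold lower in Ribo-Seq, at 2.96 against 140.39 FPKM. Transformed cells and run 2 proliferation were alike to within 0.05 on the log2 scale in both assays.

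TYMS, thymidylate synthase, was lower in RNA than its same-run control in all 4 states, as were RRM1, RRM2 and DUT. The smallest of its log2 changes was -0.97, in transformed cells, where RRM1, RRM2 and DUT were at -0.07, -0.68 and -0.22. The RNA of TYMS was at 145.19 FPKM in run 1 proliferation, 62.57 in quiescence, 54.47 in pre-senescence, 75.89 in run 2 proliferation, 6.83 in senescence and 38.69 in transformed cells. Senescence was 11.1-fold lower in RNA and 13.8-fold lower in Ribo-Seq. In transformed cells it was the 1 gene of the 9 past 2-fold, and in Ribo-Seq alone, with log2 changes of -0.97 in RNA and -1.16 in Ribo-Seq; 7.36% of all rows were 2-fold lower in Ribo-Seq and 5.33% in RNA. TYMS overlaps the antisense gene ENOSF1, and the RNA-Seq kit keeps no strand, so part of its RNA value could be reads of that gene, which was not tested.

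DUT, the dUTPase, was lower in senescence by the smallest amount of the 5. Its RNA was at 33.56 FPKM in run 1 proliferation, 23.8 in quiescence, 17.51 in pre-senescence, 25.81 in run 2 proliferation, 9.97 in senescence and 22.23 in transformed cells. In Ribo-Seq it was at 134.17, 78.81, 37.93, 84.95, 22.45 and 58.37 FPKM in the same order. Senescence was 2.59-fold lower in RNA and 3.78-fold lower in Ribo-Seq, and in pre-senescence DUT had the lowest Ribo-Seq change of the 9 genes, -1.82 on the log2 scale against -0.94 in RNA.

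The 3 genes of de novo synthesis stayed within 2-fold of same-run proliferation in senescence. CAD, which carries the opening steps of pyrimidine synthesis, had RNA levels of 42.56 FPKM in run 1 proliferation, 25.63 in quiescence, 32.43 in pre-senescence, 21.12 in run 2 proliferation, 10.84 in senescence and 23.73 in transformed cells. Its senescent RNA was 1.95-fold lower, just short of the call, while the 2 proliferation columns differed by 2.02-fold. In Ribo-Seq senescence was 1.61-fold lower. Against run 1 proliferation the log2 changes of CAD in senescence were -1.97 in RNA and -1.66 in Ribo-Seq, in RNA lower than that of DUT (-1.75).

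IMPDH2, which commits IMP to guanine nucleotides, was the most abundant of the 9 in RNA in every column. It was at 203.37 FPKM in run 1 proliferation, 166.69 in quiescence, 183.61 in pre-senescence, 111.24 in run 2 proliferation, 79.29 in senescence and 141.08 in transformed cells. Its largest change was in the Ribo-Seq level of quiescence, 116.57 against 268 FPKM, 2.3-fold lower, which was not matched in RNA (a log2 change of -0.29). In senescence its log2 changes were -0.49 in RNA and -0.71 in Ribo-Seq, and -1.36 and -1.81 against run 1 proliferation. PPAT, the enzyme of the committed step of purine synthesis, was at 9.25 FPKM in run 1 proliferation and 9.48 in run 2. It ranged from 6.09 FPKM in senescence to 13.04 in transformed cells, with no change of 2-fold in any state.

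In quiescence, reached by loss of serum, fewer of these genes were past 2-fold than in senescence, and by smaller amounts. RRM2 and TYMS were at least 2-fold lower in RNA (log2 changes of -1.31 and -1.21), where 2.37% of all rows were, and no gene was higher, where 4.01% were. RRM2, TYMS and IMPDH2 were lower in Ribo-Seq, where 8.02% of rows were and 9.11% were higher. TK1 and RRM1 came next, at -0.97 and -0.79 in RNA. The median over the 9 genes was -0.73 in RNA and -0.84 in Ribo-Seq, against 0.00 and -0.05 over all rows. These values depended on the control column: against proliferation of run 2 no gene was past 2-fold in either assay and the RNA median was -0.14, since TYMS, TK1 and CAD were lower in run 2 proliferation than in run 1 by 0.94, 0.91 and 1.01 on the log2 scale. In RNA, 6 genes lay below both proliferation columns, and 3 between them.

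Pre-senescence, 5 days into RAS induction, showed 1 gene past 2-fold in RNA and 4 in Ribo-Seq. TYMS alone was lower in RNA (-1.41, where 2% of rows were lower and 1.77% higher), and RRM2, TYMS, TK1 and DUT were lower in Ribo-Seq (-1.24, -1.31, -1.55 and -1.82, where 10.3% of rows were lower and 7.13% higher). No gene was 2-fold higher in either assay. Against run 2 proliferation the Ribo-Seq count was 2, RRM2B and DUT, and the RNA count was 0. With a call scaled to the SD of rows of like level, RRM2, TYMS, TK1 and DUT were called in both assays. That rule called 6.77% of all rows in RNA and 6.85% in Ribo-Seq. RRM1, 6.11-fold lower in RNA at 14 days, was at -0.17 on the log2 scale at 5 days. The 2 time points were sequenced in different runs and time cannot be told apart from run.

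In transformed cells, labelled as carrying knockdowns of p53 and p16INK4A, no gene was past 2-fold in RNA. Of all rows 5.33% were lower and 4.92% higher by that fold. The changes ran from -0.97 for TYMS to 0.46 for PPAT, with a median of -0.07. CAD, IMPDH2 and PPAT were all above 0 in RNA (0.17, 0.34 and 0.46), each within the between-run SD of 0.51. RRM2 was at -0.68 and RRM2B at -0.66. In Ribo-Seq TYMS was the single gene past 2-fold, at -1.16, where 7.36% of rows were lower and 5.28% higher. Against run 1 proliferation CAD and IMPDH2 turned negative in RNA (-0.84 and -0.53), RRM2 and TYMS were past 2-fold (-1.17 and -1.91), and 5 genes were past it in Ribo-Seq.

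Senescent and transformed cells both express RASG12V and share a run, so they can be set side by side. RNA was at least 2-fold lower in senescence for 7 of the 9 genes, all but IMPDH2 and RRM2B, and higher for RRM2B, where 15.1% and 8.08% of rows were. Ribo-Seq gave 5 lower and 1 higher, where 17.3% and 12.7% of rows were. RRM2 was 34.8-fold lower in RNA and 48.7-fold in Ribo-Seq, and TK1 33.4-fold and 46.8-fold. No TE of the 9 differed by 2-fold, where 3.23% of rows were lower and 3.38% higher. RRM2B was 4.9-fold higher in RNA and 4.23-fold in Ribo-Seq. The 2 states differ in the duration and delivery of RAS as well as in p53, p16INK4A and SV40 small T, and these cannot be told apart.

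TE differed less than the levels in senescence. There no gene of the 9 changed TE by 2-fold, where 6.08% of rows were lower and 3.35% higher, and the TE changes of the 5 S-phase enzymes ran from -0.56 to 0.39. RRM2 carried many footprints per RNA, with a log2 TE of 1.93 in run 1 proliferation and 1.71 in run 2, above 94.2% and 91.3% of rows, and 1.30 in senescence, above 83.3%. DUT was similar in proliferation, at 2.00 and 1.72, and lower in pre-senescence and senescence, at 1.12 and 1.17. TK1 went from 0.96 to 0.40 in senescence, a difference of -0.56 against a between-run difference of -0.24, and 18.7% of rows had a lower TE change. The senescent TE of TK1 (2.96 over 2.24 FPKM) and of RRM2 (3.35 over 1.36) rests on levels close to the limit of 1 FPKM.

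The only TE change past 2-fold was that of RRM2B in pre-senescence. Its log2 TE was 1.14 in run 1 proliferation, 1.08 in run 2, 0.68 in quiescence, -0.04 in pre-senescence, 0.95 in senescence and 1.16 in transformed cells. Pre-senescence was the lowest, 1.19 below its control. That is 1 of 9 genes, where 8.85% of rows were 2-fold lower and 5.7% higher, and with a call scaled to the SD of rows of like level it was not called. The RNA of RRM2B was higher there (0.58) and its footprints lower (-0.60). All rows together shifted by -0.13 in TE in that state, and the Ribo-Seq value rests on 1 library.

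IMPDH2 in quiescence was the next largest. Its log2 TE was 0.40 and 0.16 in the proliferation columns and -0.52 in quiescence, a change of -0.91, and 5.36% of rows had a lower one. CAD moved in the opposite direction there, from 0.25 to 0.81, a change of 0.56 with a between-run difference of 0.03. No gene passed 2-fold in TE in quiescence, where 4.17% of rows were lower and 3.72% higher, or in transformed cells, where 2.13% were lower and 1.28% higher.

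The difference between the proliferation columns limits every smaller change above. From run 1 to run 2, RNA differed by 2-fold for CAD alone (-1.01), where 2.99% of rows were lower and 4.84% higher, and Ribo-Seq for TK1 and IMPDH2 (-1.15 and -1.11), where 8.21% and 10.3% were. The median over the 9 genes was -0.48 in RNA and -0.66 in Ribo-Seq, against -0.05 and 0.00 over all rows. RRM2B was higher in run 2, at 0.76, and PPAT was at 0.04. No TE of the 9 differed by 2-fold, where 3.87% of rows were lower and 5.83% higher. The E2F list below had a median of -0.74 and the MYC list of -0.75 in the same comparison, and p53 targets 0.46.

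The rest of the nucleotide pathway was counted over lists of 75 genes, of which 65 were in the table. In senescence 13 of them were 2-fold lower in RNA and 8 higher, where 13% and 7.08% of all rows were, with a median of -0.33. Other enzymes of deoxynucleotide supply gave 3 lower of 11, among them DCK, deoxycytidine kinase (-2.08 in RNA, -2.28 in Ribo-Seq), and DTYMK, which phosphorylates dTMP (-1.26, -1.97). The list median was -0.02. De novo purine synthesis gave 4 lower and 2 higher of 16, with PRPS2, which makes the ribose phosphate donor, lowest at -2.95, and de novo pyrimidine synthesis 0 of 4. One-carbon supply gave 3 lower and 1 higher of 11, and salvage 0 lower and 2 higher of 9, with UPP1, uridine phosphorylase, at 1.42.

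Nucleotide breakdown gave 3 lower and 3 higher of 14 in senescence, where 13% and 7.08% of all rows were. AMPD3, an AMP deaminase, led the higher ones at 3.67 in RNA and 3.75 in Ribo-Seq. AMPD3 was also 2-fold higher in RNA in quiescence (1.12), pre-senescence (1.23) and transformed cells (2.93), but less than 2-fold above run 2 proliferation in the first 2 of these. In quiescence 2 of the 65 genes were lower and 2 higher, where 2.37% and 4.01% of all rows were. The lower ones were both of pyrimidine synthesis, with a list median of -0.89. They were CTPS, which makes CTP, at -1.54, and DHODH, which makes orotate, at -1.10. From run 1 to run 2 proliferation their RNA differed by -0.40 and -0.92. DHODH, at 2.71 FPKM in quiescence, was less than 2-fold below the 3.07 FPKM of run 2 proliferation. ALDH1L2, of mitochondrial folate metabolism, was higher at 1.22, with a between-run difference of 0.63. In pre-senescence 1 was lower, PSAT1 of serine synthesis at -1.12, where the between-run difference was -1.04. The 2 higher ones were PNP, the purine nucleoside phosphorylase, at 1.46 and AMPD3. Of all rows 2% were lower and 1.77% higher there. In transformed cells 5 were lower, among them AK4, an adenylate kinase, at -1.77, and XDH, which was listed at the limit of 1 FPKM there, and 2 were higher, AMPD3 and NT5E, the ecto-nucleotidase, at 1.20. Of all rows 5.33% were lower and 4.92% higher in that state.

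Genes of known control were counted beside them. Of 18 other E2F and S-phase genes, 16 were 2-fold lower in RNA in senescence with a median of -2.92, 12 in quiescence (-1.09), 2 in pre-senescence (-0.63) and 1 in transformed cells (0.02). Of all rows 13%, 2.37%, 2% and 5.33% were 2-fold lower in RNA in these states, in the same order. Of 13 p53 targets in the table, 7 were higher in senescence with a median of 1.02, 2 in quiescence (0.46), none in pre-senescence (0.40), and 5 were lower in transformed cells (-0.56). Of all rows 7.08%, 4.01% and 1.77% were higher in senescence, quiescence and pre-senescence, and 5.33% were lower in transformed cells. Of 9 MYC and growth genes, 2 were lower in quiescence (-0.55) and 1 in senescence (-0.19), where 2.37% and 13% of all rows were. The part of cell cycle arrest, p53 activity or growth in the values of the 9 genes was not tested.

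For the 6 genes past 2-fold in RNA in some state, the rows most alike over 8 changes (both assays, 4 states) were found by Euclidean distance on the log2 scale among 8405 rows above the limit in all columns. RRM1 was nearest to USP1 (0.54), BORA (0.55) and DBF4 (0.56). RRM2 was nearest to UBE2C (1.19), CDC20 (1.33) and PRC1 (1.53), and TK1 to PRC1 (0.94), HMGB2 (1.15) and UBE2C (1.42), so that these 2 genes shared 2 neighbours. TYMS was nearest to DIAPH3 (1.07), MCM6 (1.17) and ATAD2 (1.28). DUT was nearest to CDKN1B (0.74), STMN1 (0.81) and SAC3D1 (0.81), and the 3 rows nearest to RRM2B included ARMCX3 (0.54) and ANO10 (0.90).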

How the data were processed

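The deposited table held FPKM values, and per the labels and the study's methods the authors aligned reads with Bowtie to curated protein-coding transcripts from Ensembl and to rRNA, kept uniquely mapped reads, combined replicate libraries and set a lower limit of 1 FPKM. The submitters' processing notes name hg19, and the Bowtie version is not given in the sources used here. Unique mapping can lose reads from stretches shared with pseudogenes. Log2 changes and TE were computed in Python 3.11.15 with pandas 2.3.3 and numpy 2.4.6, with no pseudocount, against the proliferation column of the same run. The runs come from the study's methods. Calls were counts past 2-fold, set beside the share of all 9699 rows past it. The scripts were tested on simulated data. Alternatives were the other run's control, subtraction of the all-row median, a minimum mean of 5 FPKM, a pseudocount of 1, and a call scaled to the SD of 501 rows of like level. The 9 genes and the lists were chosen with earlier results of these data known. All 9 were named in every column, of the lists the 2 largest RNA changes in each direction per state, and for likeness the 3 nearest rows; DCK and DTYMK were named after their values were seen, and some genes that these rules name are not reported here. Promoters came from a RefSeq table and matched 7 of 9 genes by symbol.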

Additional observations from a re-analysis of the deposited data

Results flagged for a closer look

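RRM2B, the p53-inducible small subunit, stood out because its changes had opposite signs in the 2 states with RASG12V of run 2. In senescence its log2 change was 1.63 in RNA and 1.49 in Ribo-Seq, and in transformed cells, which are labelled with a p53 knockdown, it was -0.66 and -0.59. Both states share 1 proliferation column and have 1 column each, so the difference was not tested, and the transformed values are no larger than the between-run difference of 0.76 and 0.71. Against the run 1 control the transformed values were 0.10 and 0.12.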

How the results depend on the processing

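The choice of control column moved the most values. Against the proliferation column of the other run, the median log2 change of the 9 genes was -0.14 in RNA in quiescence, 0.00 in RNA and -0.31 in TE in pre-senescence, -1.97 in RNA and -2.56 in Ribo-Seq in senescence, and -0.59 in RNA and -1.10 in Ribo-Seq in transformed cells. The count of genes past 2-fold became 0 in RNA and 0 in Ribo-Seq in quiescence, 0 in RNA and 2 in Ribo-Seq in pre-senescence, and 2 in RNA and 5 in Ribo-Seq in transformed cells. In senescence it was 8 in each assay, 7 lower and 1 higher, with CAD and IMPDH2 added. The share of all rows past 2-fold against the other control is not given here. With a call scaled to the SD of rows of like level, the counts were 0 in Ribo-Seq and 1 in TE in quiescence, 4 in RNA and 0 in TE in pre-senescence, and 1 in RNA in transformed cells, the same count as after subtraction of the all-row median. In pre-senescence this rule called the same 4 genes in RNA and Ribo-Seq, and in senescence it called 5 in each assay, without DUT in RNA and without RRM2B in Ribo-Seq. Over all states and measures the rule called between 6.08% and 7.93% of all rows. The minimum of 5 FPKM and the pseudocount of 1 moved none of these medians or counts beyond the spread between runs. Of the 108 values of single genes, 72 moved beyond that spread under the other control and 3 under the pseudocount. The count of 72 was fixed in advance: the other control shifts each value by its own difference between runs, from which the spread was computed. No change that had been called turned its sign under any alternative run. No paired analysis was possible because each state had 1 column per run in the table and no replicate columns. Without read counts per gene, the precision of low values such as RRM2 and TK1 in senescence was not estimated.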

Other observations

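AMPD3, an AMP deaminase of nucleotide breakdown, was the 1 gene of the 65 other pathway genes that was at least 2-fold higher in RNA and in Ribo-Seq than same-run proliferation in all 4 states, with Ribo-Seq log2 changes of 1.16 in quiescence, 1.27 in pre-senescence, 3.75 in senescence and 3.03 in transformed cells. Its proliferation columns differed by 0.56 in RNA and 0.63 in Ribo-Seq, and its RNA in quiescence and pre-senescence, 9.39 and 10.1 FPKM, was less than 2-fold above the 6.38 FPKM of run 2 proliferation.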
